A study of Homo sapiens with 3 samples.

Results

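The 8 genes described here are the transcription factor gene NFE2L2, whose product is NRF2, its inhibitor KEAP1, the glutathione genes GCLC, GCLM, GSS and GSR, the cystine transporter gene SLC7A11 and the quinone reductase gene NQO1. They were chosen by name and are 8 of 26543 genes in the deposited tables. All libraries came from MTAC-P, a lung cancer line that was derived from PC9 and is resistant to EGFR tyrosine kinase inhibitors, grown in DMEM with 10% FBS. The shBCAT1 group, with a short hairpin against BCAT1, had 2 libraries, named here shBCAT1 1 and shBCAT1 2 after their titles. The control group, with a short hairpin against luciferase, had 1 library, while the series' design text speaks of triplicates. Whether the shBCAT1 libraries share a hairpin or a culture is not in the labels, so the spread between them, on which the p-values rest together with a prior pooled over genes, may be technical.

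KEAP1 is the adaptor that presents NRF2 to a CUL3 ubiquitin ligase, and in unstressed cells NRF2 is therefore short-lived. Oxidants and electrophiles that modify KEAP1 let NRF2 accumulate, pair with small MAF proteins and bind antioxidant response elements of genes for glutathione synthesis, quinone reduction and NADPH supply. Glutathione is built from glutamate, cysteine and glycine, and BCAT1, the cytosolic branched-chain aminotransferase, is one of the enzymes that make glutamate. Alterations of KEAP1 and NFE2L2 are well known in lung cancer. NRF2 is controlled largely at the level of its protein, which RNA values do not show.

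Promoter windows, from 250 bases before to 50 after an annotated start (RefSeq, GRCh38.p14), were used for 5 of the 8 genes, in 7 windows. GSR was left out of this search, and no window was at hand for GSS and SLC7A11. The 7 windows were searched on both strands for the core of the antioxidant response element, TGACNNNGC, and 2 windows held it, beside 13.3% of all 35116 windows. The stretches around the matches are shown because they match the core that NRF2 and its MAF partners are known to read, which makes them a match of letters and not a shown binding site, with the 9 matching bases in capitals and 10 bases on each side, 5′ to 3′ along the gene.
GCLM, chr1:93909446-93909474, minus strand: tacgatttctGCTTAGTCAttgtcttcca
KEAP1, chr19:10502807-10502835, minus strand: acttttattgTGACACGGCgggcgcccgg
KEAP1, chr19:10502784-10502812, minus strand: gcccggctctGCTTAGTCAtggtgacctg
GCLM and KEAP1 held the same 9 letters, GCTTAGTCA, which read as the core on the opposite strand. The match of GCLM lay 34 to 26 bases before the annotated start and inside the locus of both deposited GCLM transcripts. The matches of KEAP1 lay 54 to 46 and 31 to 23 bases before the annotated start used for one of its windows. Both were inside the locus of its longer deposited transcript, NM_203500, and the nearer match was also inside that of NM_012289. The windows of NFE2L2, GCLC and NQO1 held no match, which says only that these letters are not in those windows.

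Levels are given in FPKM, fragments per length of transcript, scaled to the total of mapped fragments, summed over the RefSeq transcripts of a gene. Each value has bounds that lie 2 SDs on either side of it, computed from the deposited bounds, and these cover the error of counting and assigning fragments within a library, called counting error here, not the spread between libraries. For a gene with several transcripts, their errors were combined as if independent. The bounds of such a sum may therefore be wrong where transcripts share fragments. FPKM summed to 44313, 46145 and 53898 in the libraries shBCAT1 1, shBCAT1 2 and control, and the precision of the values put the depth of shBCAT1 1 and shBCAT1 2 at 1.03 and 1.09 times that of the control. The epithelial keratin genes KRT7, KRT8, KRT18 and KRT19 were at 87.7 FPKM or more in every library. Other epithelial markers were lower, with EGFR at 4.2 to 6.2, EPCAM at 3.28 to 3.91 and CDH1 at 0.923 to 1.24 FPKM. The fibroblast genes COL1A2, COL3A1 and DCN and the leukocyte gene PTPRC were listed at or near 0. Low values were listed for COL1A1, at 0.105 to 0.259 FPKM, and for the endothelial gene CDH5, at 0.0933 to 0.214 FPKM. PDGFRB, LYZ, PECAM1 and VWF were at 0.174 FPKM or less. CD68, a macrophage marker that other cells also express, was at 3.51, 3.6 and 3.42 FPKM in shBCAT1 1, shBCAT1 2 and the control. RNA came from whole cultures, so fewer cells with a transcript and less of it per cell cannot be told apart.

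BCAT1 (chromosome 12, 24810024 to 24949459, hg38) was at 1.05 FPKM in the library labelled shBCAT1 1 and 0.241 FPKM in the library labelled shBCAT1 2, against 0.213 FPKM in the control. The targeted gene was thus 4.96 times the control in the first and 1.13 times in the second, with bounds above those of the control in shBCAT1 1 and overlapping ones in shBCAT1 2. Its RNA goes against the label of shBCAT1 1 and was not lower in shBCAT1 2 either, so neither library shows less BCAT1 RNA. The leading transcript differed, with NM_001178093 at 100% of the gene's value in the control and NM_001178091 at 99.98% in shBCAT1 2. In shBCAT1 1, NM_005504 held 57.8% and NM_001178093 held 42.2%. The width of the BCAT1 bounds equals that of only 33.3 fragments in shBCAT1 2 and 25.7 in the control. A modest decrease in shBCAT1 2 could therefore be missed. Every direction below is between libraries as labelled.

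**Figure D1:**
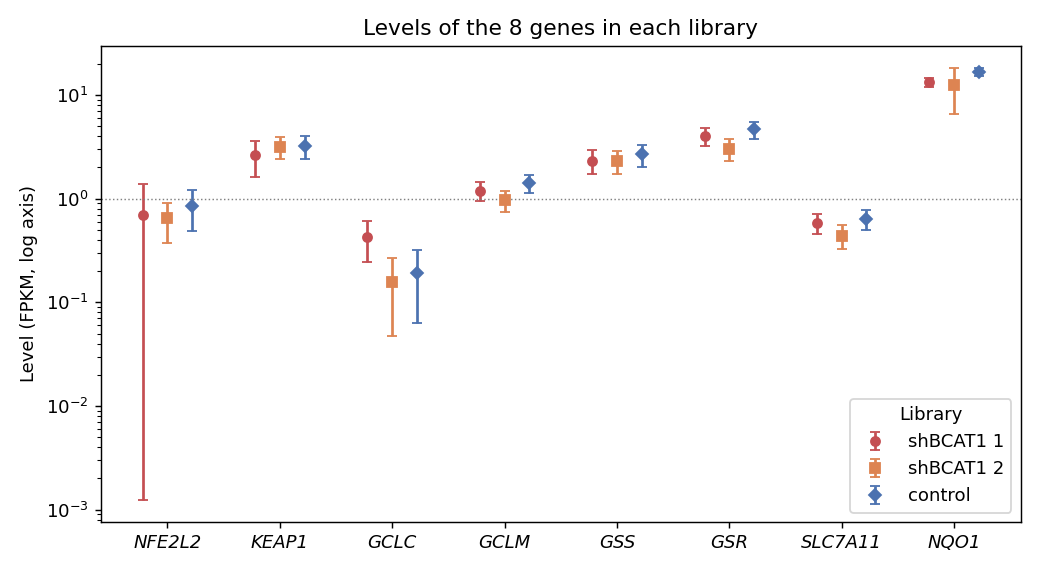
Level of each of the 8 genes in FPKM (log axis) in the libraries shBCAT1 1, shBCAT1 2 and control, 1 library per point, with bars from the lower to the upper bound (2 SDs of counting error) and a dotted line at 1 FPKM. NQO1 stands above the others at 12.4 to 16.6 FPKM, GCLC is lowest at 0.157 to 0.424 FPKM, and only GCLC has a shBCAT1 library above the control.

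The genes kept nearly one order of level in all libraries. NQO1 was highest, followed by GSR, KEAP1 and GSS, then GCLM, NFE2L2, SLC7A11 and GCLC, except that KEAP1 stood above GSR in shBCAT1 2. In the control, NQO1 was 87.2 times as high per length as GCLC. NQO1 lay above its neighbour, and GSS above GCLM, with bounds apart in every library, and SLC7A11 lay above GCLC with bounds apart in shBCAT1 2 and the control but not in shBCAT1 1. The bounds of the other neighbours overlapped. NQO1 ranked 365, 422 and 378 among 26202 genes in shBCAT1 1, shBCAT1 2 and the control, and GCLC ranked 6027, 9564 and 8687.

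The comparison of the shBCAT1 libraries with the control asks which transcripts differ when BCAT1 is targeted. Of the 8 genes, 7 were lower in both shBCAT1 libraries, by 0.961% to 35.2% of the control value in a single library, and GCLC was lower in 1 of them. Being lower in both was common, at 43.7% of the 3889 genes averaging 1 FPKM or more, 35.3% of the 16439 genes with any value and 64.4% of genes averaging 5 FPKM or more. The count was 6 of 8 with median-of-ratios scaling, where SLC7A11 differed by 0.02 on the log2(FPKM + 1) scale in shBCAT1 1, beside 36.8% of genes averaging 1 FPKM or more. It was also 6 of 8 with quantile normalization, where NQO1 differed by 0.03 in that library, beside 32.2%. Both comparisons use the same control library, so a shift of that library moves every gene in both.

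None of the 8 genes passed limma's test with Benjamini-Hochberg adjustment over all genes tested, and 0 of the 8 had an unadjusted p under 0.05. Among all genes averaging 1 FPKM or more, 0.36% passed as lower and 0% as higher, and before adjustment a p under 0.05 was reached by 4.96% as lower and by 0.643% as higher. The genes KEAP1, GCLM, GSS, GSR and NQO1 reached that mean. NFE2L2, GCLC and SLC7A11 did not and were fitted with all 16439 genes, of which 0% passed and 6.34% had an unadjusted p under 0.05. The median fitted log2(FPKM + 1) difference was -0.15 over the 8 genes, -0.06 over the genes averaging 1 FPKM or more, -0.22 over those averaging 5 FPKM or more and 0.0023 over all 16439 genes. The fit has 1 control library and takes its spread from the 2 shBCAT1 libraries.

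**Figure D2:**
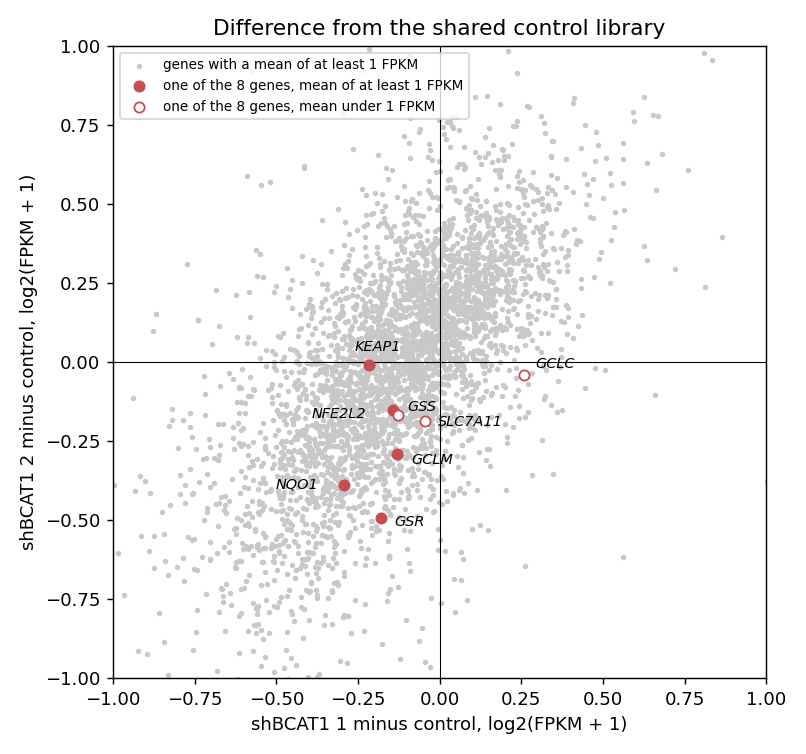
Difference from the control in log2(FPKM + 1) for shBCAT1 1 (horizontal axis) and shBCAT1 2 (vertical axis), which share the control library. Grey points are genes averaging 1 FPKM or more (107 of 3889 lie outside the axes), filled red points the genes described that reach that mean and open ones those that do not, and 7 of the 8 genes lie at the lower left, where both are lower, inside the grey cloud.

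Neither regulator passed the test or had bounds apart from the control. NFE2L2 (chromosome 2, 177230303 to 177265131), which encodes NRF2, was at 0.689 FPKM in shBCAT1 1 and 0.645 FPKM in shBCAT1 2, against 0.845 FPKM in the control. The shBCAT1 mean was 0.667 ± 0.032 FPKM (SD, n = 2). The fitted log2(FPKM + 1) difference was -0.15 ± 0.11 (SE), with a 95% interval of -0.56 to 0.27 and a limma adjusted p of 0.863.

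KEAP1 (chromosome 19, 10486120 to 10503378), the adaptor that holds NRF2 in check, was at 2.62 and 3.17 FPKM in shBCAT1 1 and shBCAT1 2, against 3.20 FPKM in the control. It was 18.2% lower in shBCAT1 1 and 0.961% lower in shBCAT1 2, less than the counting error of either difference, at 0.917 and 0.0546 times it. The fitted difference on the log2(FPKM + 1) scale was -0.11 (95% interval -0.68 to 0.46, limma adjusted p 0.912). Per length, KEAP1 RNA was 3.80 and 4.92 times as high as NFE2L2 RNA in shBCAT1 1 and shBCAT1 2, and 3.78 times in the control.

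NFE2L2 fragments were assigned to other transcripts in each library, although the gene's sum differed little. In shBCAT1 1 the transcripts NM_001313903 and NM_006164 held 57.2% and 30.3% of the sum, in shBCAT1 2 NM_006164 held 99.2%, and in the control NM_001313902 held 73.1%. NM_006164 was at 0.209 FPKM (bounds 0 to 0.65) in shBCAT1 1 and 0.64 FPKM (0.396 to 0.883) in shBCAT1 2, against a value listed near 0 in the control (upper bound 0.0501). NM_001313902 had upper bounds of 0.0504 and 0.0527 FPKM in shBCAT1 1 and shBCAT1 2, against 0.618 FPKM (0.339 to 0.898) in the control. These transcripts overlap over the same locus, so most fragments do not tell them apart, and the width of the bounds for the gene's sum in shBCAT1 1 equals that of only 4.01 fragments. The 2 KEAP1 transcripts kept their shares more closely, with NM_012289 at 74.1%, 66.5% and 66.1% of the gene's value in shBCAT1 1, shBCAT1 2 and the control.

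**Figure D3:**
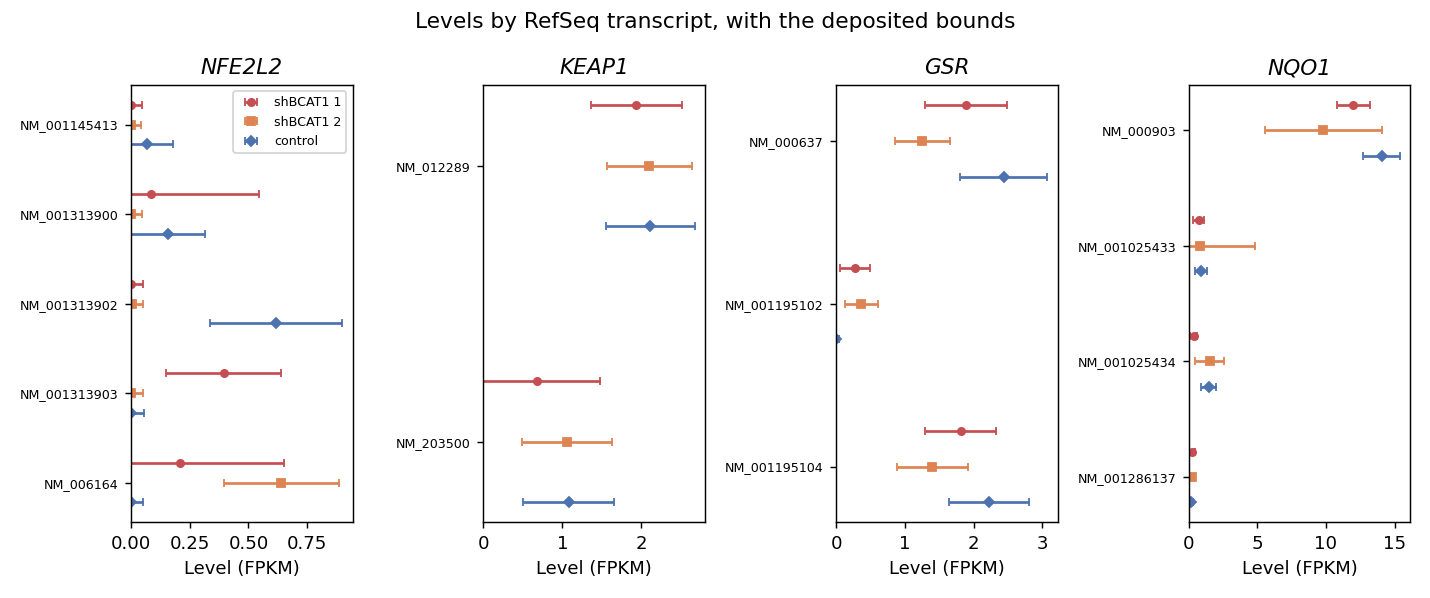
Level in FPKM of each RefSeq transcript that passed 0.05 FPKM in any library, for NFE2L2, KEAP1, GSR and NQO1, with the deposited lower and upper bounds, shBCAT1 1 above shBCAT1 2 and the control below. The leading NFE2L2 transcript differs between the libraries, while NM_000903 leads NQO1 in each at 9.79 to 14.1 FPKM.

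Glutamate-cysteine ligase, which joins glutamate and cysteine in the rate-limiting step of glutathione synthesis, has the catalytic subunit GCLC and the modifier subunit GCLM, and their RNAs gave unlike patterns over the libraries. GCLC (chromosome 6, 53497341 to 53545129) was at 0.424 FPKM in shBCAT1 1 and 0.157 FPKM in shBCAT1 2, against 0.19 FPKM in the control. It was highest in shBCAT1 1 and lowest in shBCAT1 2, so the shBCAT1 libraries lay on either side of the control. In shBCAT1 1 it stood 2.23-fold above the control, a gap 2.12 times its counting error, and 2.7-fold above shBCAT1 2. Neither library had bounds apart from the control. The width of the GCLC bounds equals that of 22.1, 8.15 and 8.97 fragments in shBCAT1 1, shBCAT1 2 and the control, so a change of this size is near the limit of what the depth shows. Fitted on the log2(FPKM + 1) scale, the GCLC difference was 0.11 ± 0.19 (SE), with a 95% interval of -0.62 to 0.84 and a limma adjusted p of 0.888. Without shBCAT1 1, it was -0.04. Nearly all of the GCLC value lay on NM_001197115 in every library, and NM_001498, the other deposited transcript, had upper bounds of 0.0338 to 0.0369 FPKM.

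GCLM (chromosome 1, 93885200 to 93909598) was at 1.19 FPKM in shBCAT1 1 and 0.965 FPKM in shBCAT1 2, against 1.40 FPKM in the control. Both shBCAT1 libraries were below the control, by 14.9% and 31.1%, with overlapping bounds, and the differences were 1.1 and 2.44 times their counting error. In limma, the log2(FPKM + 1) difference of GCLM was -0.21 ± 0.18 (SE), with a 95% interval of -0.71 to 0.29 and a limma adjusted p of 0.839. The level of GCLC was 0.356 and 0.163 times that of GCLM in shBCAT1 1 and shBCAT1 2, and 0.136 times in the control, each value being a ratio of 2 FPKM values.

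GSS (chromosome 20, 34928433 to 34955798), the glutathione synthetase that adds glycine, was at 2.32 and 2.30 FPKM in shBCAT1 1 and shBCAT1 2, against 2.66 FPKM in the control. GSS has 1 deposited transcript, and the width of its bounds equals that of 61, 64 and 68 fragments in the same order. The shBCAT1 libraries agreed closely and were 13% and 13.6% lower, at 0.787 and 0.838 times the counting error of the difference. The fitted log2(FPKM + 1) difference was -0.15 (95% interval -0.65 to 0.36, limma adjusted p 0.872).

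GSR (chromosome 8, 30678063 to 30727969), the reductase that regenerates glutathione from its oxidized form with NADPH, was at 4 FPKM in shBCAT1 1 and 3.02 FPKM in shBCAT1 2, against 4.66 FPKM in the control. Both shBCAT1 libraries were lower, by 14.2% and 35.2%, and the bounds lay below those of the control in shBCAT1 2 (2.32 to 3.71, against 3.8 to 5.52 FPKM) but overlapped them in shBCAT1 1 (3.18 to 4.82 FPKM). Bounds below the control were found in shBCAT1 2 for 7.66% of genes averaging 1 FPKM or more. The difference in shBCAT1 2 was 2.96 times its counting error, and the shBCAT1 libraries differed from each other by 1.82 times theirs. Fitted on the log2(FPKM + 1) scale, the GSR difference over both was -0.34 ± 0.23 (SE), with a 95% interval of -0.98 to 0.31 and a limma adjusted p of 0.806.

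Within GSR, the main transcripts NM_000637 and NM_001195104 were both lower in the shBCAT1 libraries. NM_000637 was at 1.89 and 1.25 FPKM in shBCAT1 1 and shBCAT1 2, against 2.44 FPKM in the control, with bounds apart from the control in shBCAT1 2 (0.854 to 1.65, against 1.80 to 3.07 FPKM). NM_001195104 was at 1.82 and 1.4 FPKM in shBCAT1 1 and shBCAT1 2, against 2.22 FPKM in the control. The minor transcript NM_001195102 was higher in both, at 0.276 FPKM (0.0556 to 0.496) in shBCAT1 1 and 0.366 FPKM (0.125 to 0.606) in shBCAT1 2, against a value near 0 in the control (upper bound 0.0464). Its bounds lay above those of the control in both libraries, but it shares most of its locus with the main transcripts and was singled out after its values were seen.

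SLC7A11 (chromosome 4, 138164094 to 138242349), the light chain of the antiporter that brings in cystine for glutamate, was at 0.588 FPKM in shBCAT1 1 and 0.44 FPKM in shBCAT1 2, against 0.639 FPKM in the control. It was 7.93% and 31.1% lower, at 0.538 and 2.23 times the counting error, and bounds overlapped in both libraries. In limma, the log2(FPKM + 1) difference of SLC7A11 was -0.12 ± 0.13 (SE), with a 95% interval of -0.63 to 0.39 and a limma adjusted p of 0.863. The heavy chain SLC3A2, which anchors SLC7A11 in the membrane, was much higher per length, at 11.9 and 12.6 FPKM in shBCAT1 1 and shBCAT1 2, against 12.9 FPKM in the control.

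NQO1 (chromosome 16, 69709401 to 69726668), a quinone reductase and a standard readout of NRF2 activity, was at 13.4 FPKM in shBCAT1 1 and 12.4 FPKM in shBCAT1 2, against 16.6 FPKM in the control. Both shBCAT1 libraries were lower, by 19.4% and 25.1%. The bounds lay below those of the control in shBCAT1 1 (12 to 14.7, against 15.1 to 18.1 FPKM), as they did for 7.61% of genes averaging 1 FPKM or more. They overlapped in shBCAT1 2, where they were wider (6.49 to 18.4 FPKM), as were the deposited bounds of the main transcript NM_000903 (5.54 to 14.05 FPKM). An overlap of bounds this wide does not show that the levels were alike. The differences were 3.19 and 1.36 times their counting error. The fitted log2(FPKM + 1) difference was -0.34 ± 0.19 (SE), with a 95% interval of -0.87 to 0.19 and a limma adjusted p of 0.804. With quantile normalization it was -0.06, and the median of all genes averaging 5 FPKM or more was itself -0.22.

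NM_000903 held 89.8%, 78.8% and 84.8% of the NQO1 value in shBCAT1 1, shBCAT1 2 and the control. NM_001025434 was at 0.364 FPKM (0.0859 to 0.642) in shBCAT1 1 and 1.53 FPKM (0.451 to 2.6) in shBCAT1 2, against 1.46 FPKM (0.91 to 2.02) in the control. It was lower in shBCAT1 1 alone, with bounds below those of the control there, and was singled out after its values were seen.

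**Figure D4:**
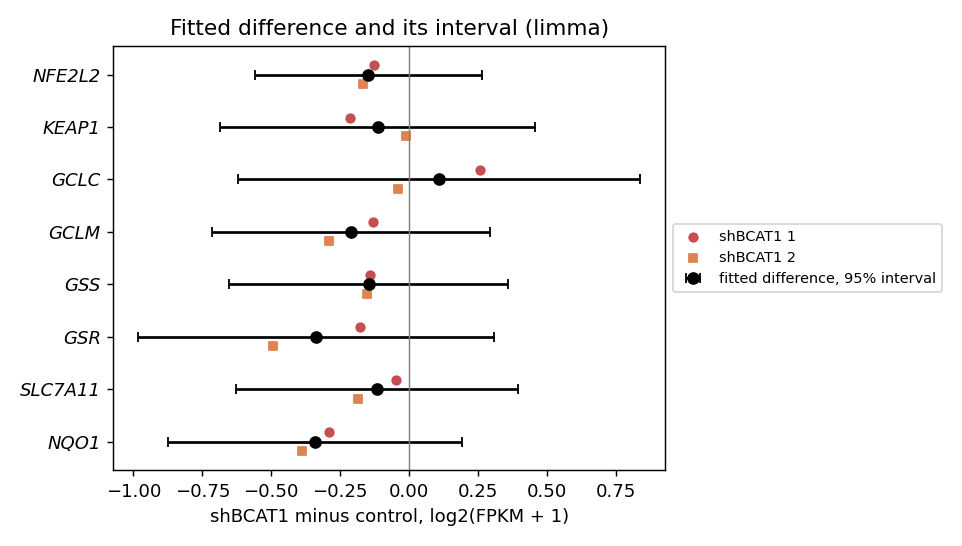
Fitted difference of the shBCAT1 libraries minus the control in log2(FPKM + 1) for each gene, with its 95% interval from limma (black), and the difference of each shBCAT1 library on its own (circles for shBCAT1 1, squares for shBCAT1 2). Every interval holds 0, and the widest downward reach is that of GSR at -0.98.

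The genes nearest to NQO1 and SLC7A11 were sought by their differences from the control, not by level, measured as the distance over the log2(FPKM + 1) differences of both shBCAT1 libraries among genes averaging 5 FPKM or more. For NQO1 they were FKBP8, UBB and EDF1, at distances of 0.02, 0.02 and 0.02, and for SLC7A11 IGFBP2, PTGES and HMGN1, at 0.01, 0.03 and 0.03. FKBP8 was at 15.1 and 14.1 FPKM in shBCAT1 1 and shBCAT1 2, against 18.9 FPKM in the control. SLC7A11 averaged under 1 FPKM, where this scale shrinks changes, so its nearest genes need not share its change in percent. IGFBP2 was at 14.0 and 12.5 FPKM in shBCAT1 1 and shBCAT1 2, against 14.4 FPKM in the control, while SLC7A11 was 7.93% and 31.1% lower. Within a distance of 0.1 there were 63 of 1041 genes for NQO1 and 31 of 1042 for SLC7A11, so such likeness is not particular to the genes named.

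Of 13 genes for NRF2's partners and its breakdown, 9 averaged 1 FPKM or more, and 3 were lower and 4 higher in both shBCAT1 libraries, beside 43.7% lower and 25.6% higher among all genes of that minimum. The median log2(FPKM + 1) difference was 0.03 (-0.03 with the length trend removed), beside -0.06 for all genes averaging 1 FPKM or more. With median-of-ratios scaling 1 was lower and 4 were higher in both (median 0.07), beside 36.8% lower among all genes. With quantile normalization 2 were lower and 3 higher (median 0.08), beside 32.2% lower. Of the 9 genes, 0 passed limma's test in either direction, with 0 at an unadjusted p under 0.05. RBX1, the RING subunit of the KEAP1 and CUL3 ligase, was at 2.2 and 2.78 FPKM in shBCAT1 1 and shBCAT1 2, against 3.4 FPKM in the control. DPP3, a peptidase known to compete for KEAP1, was at 1.44 and 2.21 FPKM in shBCAT1 1 and shBCAT1 2, against 1.25 FPKM in the control. MAFK, a small MAF partner, was at 2.11 and 2.17 FPKM, against 2.26 FPKM in the control. SYVN1, a ubiquitin ligase of the endoplasmic reticulum that can act on NRF2, was at 2.04 and 2.21 FPKM, against 1.75 FPKM in the control. Limma adjusted p-values were 0.804 or more for these genes.

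Of 18 genes that handle cystine and glutathione around the synthesis steps, 5 averaged 1 FPKM or more, and 2 were lower and 1 higher in both shBCAT1 libraries, with a median difference of 0.01 on the log2(FPKM + 1) scale, beside the same 43.7% lower and 25.6% higher among all genes. With median-of-ratios scaling 1 was lower and 2 were higher in both (median 0.07), beside 36.8% lower among all genes. With quantile normalization 1 was lower and 3 were higher (median 0.15), beside 32.2% lower. Counts were the same with the length trend removed (median 0.18), where no share over all genes was computed. None of the 5 genes passed limma's test, and 0 had an unadjusted p under 0.05. GLRX5, a mitochondrial glutaredoxin of iron-sulfur cluster assembly, was at 2.53 and 2.33 FPKM in shBCAT1 1 and shBCAT1 2, against 3.57 FPKM in the control (limma adjusted p 0.797). SLC25A39, a mitochondrial carrier for glutathione, was at 7.53 and 9.28 FPKM, against 7.28 FPKM in the control. CTH, which makes cysteine from cystathionine, was listed at or near 0 in shBCAT1 1 and the control and at 0.1 FPKM in shBCAT1 2.

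Of 33 other NRF2 targets, 27 averaged 1 FPKM or more, of which 19 were lower and 2 higher in both shBCAT1 libraries. Their median log2(FPKM + 1) difference was -0.27, beside -0.06 for all genes averaging 1 FPKM or more and -0.22 for those averaging 5 FPKM or more. Among all genes averaging 1 FPKM or more, 43.7% were lower and 25.6% higher in both. With median-of-ratios scaling 14 were lower and 3 higher in both (median -0.20), beside 36.8% lower among all genes. With quantile normalization 10 were lower and 4 higher (median -0.10), beside 32.2% lower. With the length trend removed 12 were lower and 2 higher (median -0.16), but no share over all genes was computed there. Most of the 27 genes are abundant: 18 averaged 5 FPKM or more and 15 of those were lower in both, beside 64.4% of all genes of that level. None passed limma's test, and 3 of the 27 were lower at an unadjusted p under 0.05, beside 4.96% of all genes averaging 1 FPKM or more. The peroxiredoxin PRDX1 was at 65.8 and 60.1 FPKM in shBCAT1 1 and shBCAT1 2, against 93.8 FPKM in the control, with bounds below the control in shBCAT1 2 alone. Bounds below the control were found for 6 of the 27 in shBCAT1 1 and 11 in shBCAT1 2, beside 7.61% and 7.66% of genes averaging 1 FPKM or more. These shares are not matched for level. Those below in both libraries were thioredoxin (TXN), the ferritin chains FTH1 and FTL, and the aldo-keto reductases AKR1C1, AKR1C2 and AKR1C3, which share reads between near-identical copies. Among genes averaging 1 FPKM or more, 4.17% were below in both. The log2(FPKM + 1) differences were -0.57 for PRDX1, -0.60 for TXN, -0.98 for AKR1C1 and -0.59 for AKR1C3, each with a limma adjusted p of 0.797.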

How the data were processed

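RNA of 2 shBCAT1 libraries and 1 control library was compared, grouped by the knockdown label and the title. Per the submitters' processing notes, the tools were Trim Galore, TopHat and Cufflinks, and the build was hg38. Not given in the sources used here are their versions, settings, annotation and strand. The deposited FPKM values, with lower and upper bounds, were computed by the authors per library for 56882 entries, 1 per RefSeq transcript and locus. They do not correct for a shift in which a few abundant transcripts take more of the total. Read totals are unknown, and counting intervals rest on the bounds.

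A RefSeq table on GRCh38.p14 named 49281 of 50337 accessions and GENCODE release 29 another 645, and 411 kept their accession as name. FPKM was summed per gene, alternative and unplaced sequences included, giving 26543 genes. Left out were 341 genes whose status was not OK throughout. An SD is the distance from value to upper bound divided by 2, combined over transcripts as a root sum of squares, as if their errors were independent. Its square against the value gives fragments of equal precision. R 4.3.3 with limma 3.58.1 was used for the fit of log2(FPKM + 1), a scale that understates changes of low genes, with an intensity trend, over genes averaging 1 FPKM or more. Benjamini-Hochberg adjustment ran over all genes tested, and p-values are two-sided. Residual and prior degrees of freedom were 1 and 2.99, and the lone control was taken to vary as the shBCAT1 libraries do. The fit was tested on simulated data in which the control varied as the shBCAT1 libraries do, so this could not check that assumption. Tables and plots used Python 3.11.15, pandas 2.3.3, numpy 2.4.6 and matplotlib 3.10.9. The 8 genes and the lists were chosen with earlier results of these data known. From each list up to 4 genes were named, those with the largest smaller difference of one sign in both libraries, and CTH, AKR1C2, FTH1 and FTL were named beside them. Alternatives were another pseudocount, minimum, scaling, variance model or set of entries, transcripts kept apart, the length trend removed, and each shBCAT1 library left out.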

Additional observations from a re-analysis of the deposited data

How the results depend on the processing

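Of 86 differences recomputed for the 8 genes, 84 kept their direction. Changing the minimum or the variance model cannot alter a difference, and leaving out alternative and unplaced sequences altered none. The count of 84 therefore overstates how firm the directions are. None passed an adjusted p of 0.05 in limma where one was computed, which was not done with 1 shBCAT1 library left out. NFE2L2 turned to 0.49 with transcripts kept apart, where NM_006164 stands for the gene, and GCLC, left with 1 shBCAT1 library, ran from -0.041 without shBCAT1 replicate 1 to 0.26 without shBCAT1 replicate 2. NQO1 lay between -0.36 and -0.06 over the settings with both shBCAT1 libraries and GSR between -0.43 and -0.19. The count of genes lower in both libraries was 7 of 8 and became 1 of the 1 gene left at a minimum mean of 5 FPKM. It was 6 of 8 with median-of-ratios scaling, with quantile normalization and with transcripts kept apart. With 1 shBCAT1 library left out, 7 to 8 of the 8 genes were lower in the other. Of all genes, 14 passed as lower, 8 at a minimum mean of 5 FPKM, 0 with no filter on the mean and 0 with transcripts kept apart, and 0 passed as higher, against 2 with the length trend removed. The cause of these moves was not tested. With 1 shBCAT1 library left out, 1 library stands against 1, and no count of passing genes can be had. No paired analysis was possible because the groups share fewer than 2 replicate numbers. Depth and the assignment of fragments limit GCLC and NFE2L2, with SDs of 21.1% to 49.9% of their values over the libraries. The SD also reached 23.9% for NQO1 in shBCAT1 2 and 18.8% for KEAP1 in shBCAT1 1.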
